A study of Rattus norvegicus with 8 samples.

Results

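The genes described here are 5 ligands of the epidermal growth factor (EGF) and neuregulin family, Nrg1, Areg, Hbegf, Btc and Tgfa, and 3 of their receptors, Egfr, Erbb2 and Erbb3. They were chosen by name, as members of the family, with earlier results of these data known. They are not the whole family: Egf, Nrg4, Ereg and Erbb4, which also have values, are counted with the pathway genes below. All 8 were among the 12765 genes with a symbol and a deposited value, and where a gene had several probes, the one brightest on average stands for it. All 8 representing probes were well above background, by the scanner software's flag, on at least 5 of the 8 arrays.

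RNA of Sprague-Dawley rats was hybridised to 8 one-colour Agilent arrays, 1 for each of 8 groups. The 3 nerve samples came from adult females whose left sciatic nerve had been cut at mid-thigh, and each was a pool of 3 animals collected on day 1: the proximal segment, the distal segment, and the right nerve as control, which its label also calls a PBS injection site. The 2 cord samples, each a pool of 3 animals at day 5, carry the names C-level control and dorsal hemisection, and what was injected or injured in them is not settled by the labels. The 3 Schwann cell samples were primary cultures from sciatic nerves of newborn rats, purified from fibroblasts and grown with serum, bovine pituitary extract and forskolin; they were left unstimulated for 24 h or given S100A8/A9, a pair of calcium-binding proteins abundant in neutrophils, at 5 µg/ml for 1 h or 24 h. Every group had 1 array, so there was no spread between samples and no test. Each ± below is a spot error, estimated within arrays from replicate spots of all probes of like brightness and scaled to the probe's number of spots. For a difference it joins the errors of both arrays.

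Sample names follow the column headings of the authors' value table. For 7 of the 8 samples the scanner file filed under the sample did not rank as that column did, while another scan did, and background flags were taken from the scan that ranks alike. Each direction below therefore rests on the headings. The share of probes well above background ran from 66.7% to 77.6% over the arrays. By these headings 7 of 7 neuron markers in the table were well above background on both cord arrays, with list medians of 12.43 and 13.77 (deposited log2 value) against 4.38 to 5.53 elsewhere. S100a8 and S100a9 were not well above background in any culture. All 9 Schwann cell markers in the table were so in nerve and culture, but 8 of 9 were on both cord arrays too, with list medians of 12.61 and 12.87 there against 10.69 to 12.34 in nerve, so that list does not tell nerve from cord. Used in this way the markers compare tissues, and labels within 1 tissue were not checked with them.

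EGF family ligands are made as membrane proteins and are cut free by metalloproteinases. Amphiregulin (Areg), heparin-binding EGF-like growth factor (Hbegf), betacellulin (Btc) and transforming growth factor alpha (Tgfa) bind the EGF receptor (Egfr), and Hbegf and Btc also bind Erbb4. Neuregulin 1 (Nrg1) binds Erbb3 and Erbb4. Erbb2 has no known ligand of its own and acts as a partner of the other receptors, and Erbb3, whose own kinase is very weak, signals mainly through it. In peripheral nerve, neuregulin 1 of axons acts on the Erbb2 and Erbb3 of Schwann cells, and governs their survival, their migration and the thickness of myelin.

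The genes of Btc and Areg are neighbours on chromosome 14, followed by those of the ligands Ereg and Epgn, in RefSeq's annotation of the assembly GRCr8. Btc and Areg differed in opposite directions between the proximal and distal segments (below), but over all 8 arrays their values ran alike (Pearson's r 0.81). Windows of 300 bases around their starts are shown, and any part of these sequences in the values was not tested. The windows run from 250 bases before to 50 after the gene's start, 5′ to 3′ on the gene's strand (RefSeq, GRCr8). Capitals mark a cyclic AMP response element (TGACGTCA) and a TATA box (TATAAA), the only matches of the motifs searched.
Areg, chr14:17265592-17265891, minus strand: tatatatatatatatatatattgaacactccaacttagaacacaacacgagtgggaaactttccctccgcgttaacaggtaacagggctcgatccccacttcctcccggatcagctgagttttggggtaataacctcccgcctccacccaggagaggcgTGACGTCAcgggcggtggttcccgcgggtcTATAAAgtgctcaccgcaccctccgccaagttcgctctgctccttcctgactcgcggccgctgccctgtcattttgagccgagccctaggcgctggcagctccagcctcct
Btc, chr14:16992418-16992717, plus strand: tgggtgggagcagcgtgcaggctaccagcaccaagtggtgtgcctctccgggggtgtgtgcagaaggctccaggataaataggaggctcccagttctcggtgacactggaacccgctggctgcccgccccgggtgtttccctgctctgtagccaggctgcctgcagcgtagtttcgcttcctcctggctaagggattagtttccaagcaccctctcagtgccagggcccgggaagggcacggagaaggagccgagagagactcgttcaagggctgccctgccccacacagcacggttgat

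The motifs were searched on both strands in the 6 of 8 genes whose window the RefSeq table holds: Areg, Btc, Hbegf, Tgfa, Egfr and Erbb2. TGACGTCA stood in the Areg window alone among these 6, beginning at position -91 from the gene's start, and in 1.83% of 33469 windows of the same length. TATAAA too was in the Areg window alone, beginning at position -61, against 14.2% of all windows. The AP-1 motif TGANTCA was in none of the 6 and in 7.33% of all windows. The share of G and C ran from 56% in the Areg window to 76.7% in that of Tgfa, against a median of 51.7% over all windows.

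Among the ligands, Nrg1 was near background in the uncut nerve and above it everywhere else. On the deposited log2 scale it stood at 3.51 in the contralateral nerve (not well above background), at 7.32 in the proximal and 7.02 in the distal segment, at 6.98 in the C-level and 6.17 in the hemisection cord, and at 6.80, 7.92 and 6.83 in unstimulated Schwann cells and those stimulated for 1 h and 24 h. Schwann cells at 1 h were highest and the contralateral nerve lowest. The 7 other arrays lay between 6.17 and 7.92, and the unstimulated and 24 h cultures differed by less than their spot errors. RefSeq lists 22 transcripts of Nrg1, and the array's 1 probe, designed on NM_031588, does not tell its isoforms apart. Which of these transcripts the probe detects was not checked.

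Areg was well above background in cut nerve and in culture, and in neither the cord nor the uncut nerve. Its values were 1.80 in the contralateral nerve, 5.95 in the proximal and 4.62 in the distal segment, 2.51 and 2.33 in C-level and hemisection cord (these and the contralateral value not well above background), and 5.90, 7.12 and 6.71 in unstimulated, 1 h and 24 h Schwann cells. The proximal segment and the unstimulated Schwann cells were neighbours in this order, and differed by less than the spot error of the latter, 0.13. Areg was spotted 10 times on each array, more than any other of the 8 genes, and so has small spot errors.

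Btc was high in Schwann cells and in the distal segment. It stood at 4.04, 4.55 and 6.49 in contralateral, proximal and distal nerve, at 1.80 and 2.63 in C-level and hemisection cord, where it was not well above background, and at 6.45, 6.35 and 6.89 in unstimulated, 1 h and 24 h cultures. The distal nerve alone among the nerve samples reached the levels of the cultures. The contralateral and proximal values differed by less than their spot error of 0.74.

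Hbegf was bright in nerve and culture and dimmer in cord. Its values were 11.05, 10.90 and 10.64 in contralateral, proximal and distal nerve, 7.44 and 8.50 in C-level and hemisection cord, and 11.63, 11.98 and 11.69 in unstimulated, 1 h and 24 h Schwann cells. Each culture exceeded each nerve sample, and each nerve sample exceeded both cords.

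Tgfa depended on the probe. The representing probe, A_64_P122865, gave 9.83, 9.75 and 9.77 in contralateral, proximal and distal nerve, 9.92 and 9.99 in C-level and hemisection cord, and 9.83, 9.69 and 9.73 in the cultures in the same order. Its whole range of 0.30 log2 units was matched or undercut by only 0.313% of genes, and the median gene ranged over 1.84. The other probe, A_44_P310168, with a mean of 9.64 against 9.81, gave 10.54, 8.55 and 8.16 in the nerve samples, 10.81 and 10.03 in the cords, and 9.86, 8.80 and 10.40 in the cultures. On this probe the 2 cut segments and the cultures at 1 h were low. Both probes are assigned to NM_012671 and were well above background on all 8 arrays.

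Among the receptors, Egfr separated tissue from culture. It stood at 11.81, 10.97 and 10.61 in contralateral, proximal and distal nerve, at 8.63 and 9.54 in C-level and hemisection cord, and at 4.63, 5.58 and 4.83 in unstimulated, 1 h and 24 h Schwann cells. Nerve was highest and the cultures lowest, with no overlap between tissues and a range of 7.18 log2 units, which 5.05% of genes reached. In the cultures the value was low but well above background on all 3 arrays, with spot errors near 0.5.

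Erbb2 ran the other way between nerve and culture. Its values were 10.60, 9.89 and 9.19 in contralateral, proximal and distal nerve, 7.16 and 8.84 in C-level and hemisection cord, and 11.87, 11.49 and 11.88 in unstimulated, 1 h and 24 h Schwann cells. The cultures were highest and the cords lowest. The representing probe, A_64_P038817, has 1 spot on each array, so its spot error comes from replicate spots of other probes. A second probe, A_64_P109493, kept this order of tissues, with 8.98, 8.05 and 7.35 in the nerve samples, 5.22 and 6.83 in the cords, and 9.73, 9.54 and 9.41 in the cultures. The last probe, A_64_P038812, was well above background on 3 arrays only.

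Erbb3 had the same order of tissues. It stood at 7.33, 7.67 and 8.01 in contralateral, proximal and distal nerve, at 5.63 and 5.84 in C-level and hemisection cord, and at 9.47, 9.04 and 9.31 in unstimulated, 1 h and 24 h Schwann cells. Within the nerve its order was opposite to that of Erbb2 and Egfr, with the distal segment highest.

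**Figure D1:**
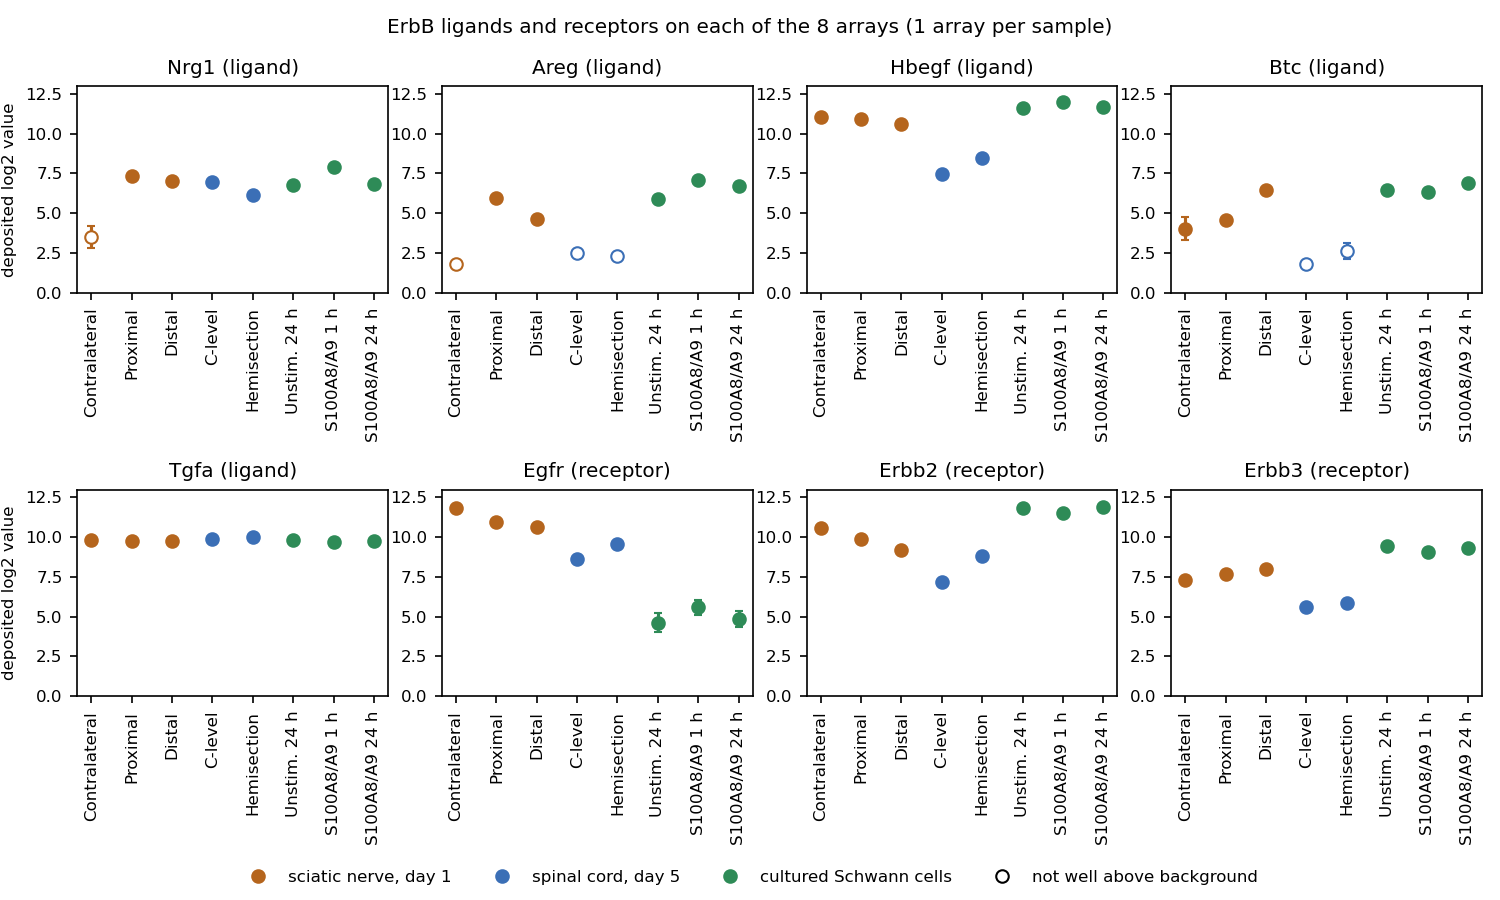
Deposited log2 value (vertical axis) of the 8 genes on each of the 8 arrays, with bars for the spot error and open circles where the probe was not well above background. Egfr is highest in nerve (10.61 to 11.81) and lowest in culture (4.63 to 5.58), whereas Hbegf, Erbb2 and Erbb3 are highest in culture.

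**Figure D2:**
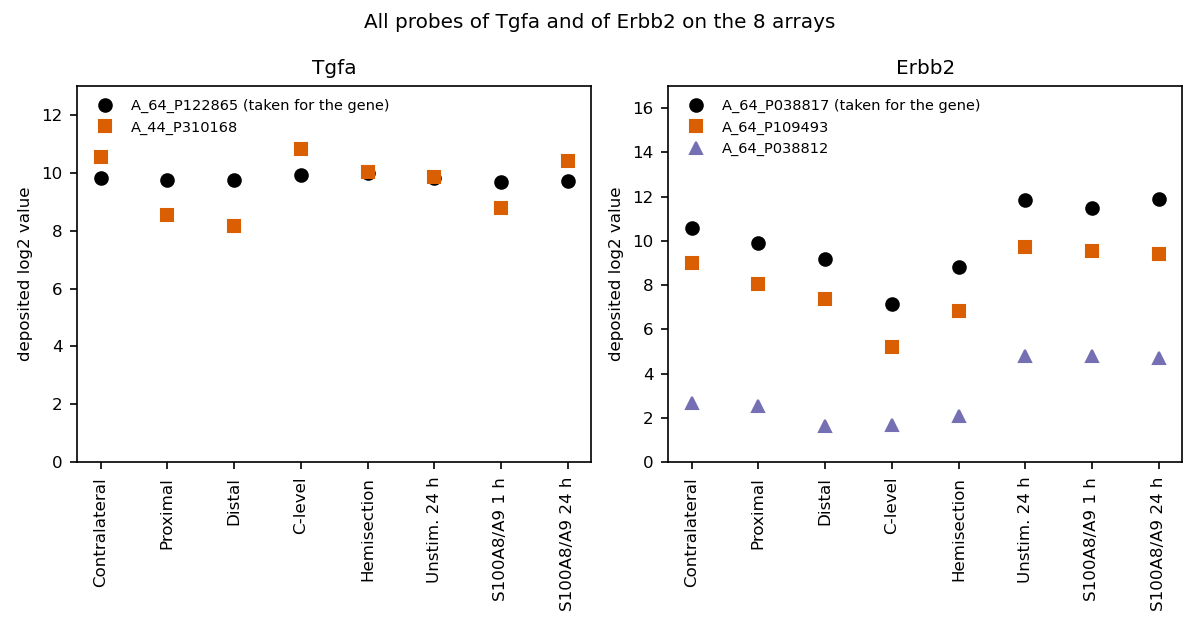
Deposited log2 values of each probe of Tgfa and of Erbb2 on the 8 arrays. The Tgfa probe taken for the gene stays between 9.69 and 9.99 while the other spans 8.16 to 10.81, and the 2 brighter Erbb2 probes have the same order of tissues.

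Set tissue against tissue, 3 of the 8 genes (Hbegf, Erbb2 and Erbb3) were higher on every Schwann cell array than on any nerve array, as were 38.4% of all genes, and 1 (Egfr) was lower, as were 24.2%. Against cord, 5 (Areg, Hbegf, Btc, Erbb2 and Erbb3) were higher in every culture, beside 45.9% of all genes, and Tgfa and Egfr were lower, beside 31.1%. Nerve exceeded cord for 5 (Hbegf, Btc, Egfr, Erbb2 and Erbb3), beside 31.7%, and was below it for Tgfa, beside 24.7%. The order of Tgfa rests on the flat probe. On its other probe nerve and cord overlapped, and so did culture and cord. Mean log2 differences of culture and nerve were 1.85 for Erbb2, 1.61 for Erbb3, 0.91 for Hbegf and -6.11 for Egfr. Arrays of 1 tissue differ in condition, so these are ranges and not replicate spreads. In tissue RNA fewer cells of a type and less RNA per cell cannot be told apart. Cultures came from newborn and nerve from adult rats, so age, culture and tissue cannot be told apart either. The log2 of summed fibroblast marker signal was 17.87 to 18.20 in culture and 17.80 to 19.35 in nerve. The list medians were 8.65 to 10.04 in culture and 14.40 to 15.75 in nerve. The part of fibroblasts in these values was not tested.

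The first comparison of conditions asked how the cut nerve differs from the uncut nerve at day 1. A gene was called where it was at least 2-fold higher or lower, a log2 difference of 1. In the distal segment 3 of 8 genes, all ligands, were higher, and 2 receptors were lower. Among all genes 13.5% were higher and 14.4% lower, 27.9% together. Nrg1 was at least 11.3-fold higher than in the contralateral nerve (log2 3.50 ± 0.71), and for Areg the log2 difference was at least 1.63 ± 0.09. Both are bounds, because the contralateral array did not show these probes well above background. For Areg the contralateral value was replaced by that array's floor of 2.99, and the ± still holds the spot error of its own dim value. Btc was 5.48-fold higher (2.45 ± 0.72).

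The receptors differed among themselves. In the distal segment Egfr was 2.29-fold lower (log2 -1.20 ± 0.08) and Erbb2 2.65-fold lower (-1.40 ± 0.12). The second Erbb2 probe gave -1.63 ± 0.10. Erbb3 was within 2-fold, at 0.68 ± 0.18, and so were Hbegf at -0.42 ± 0.08 and Tgfa at -0.06 ± 0.08, while the other Tgfa probe gave -2.38 ± 0.09. With normexp background correction on the scans, whose offset compresses dim signals, Areg was at 0.30 and Btc at 0.67. With the scans as they are filed, Egfr was at 1.00 and Erbb2 at 0.24, higher in the sample labelled distal. The scan filed under the contralateral nerve ranks as the hemisection cord column. By the headings that setting sets distal nerve against cord.

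Beside these values, other cell types differed as well. In the distal segment 6 of 9 Schwann cell markers were at least 2-fold lower and 1 higher (median log2 difference -1.48), as were 6 of 8 fibroblast markers (-1.60). Higher were 5 of 8 neutrophil markers (2.56), 7 of 8 of monocytes and macrophages (2.09), 6 of 6 of T and NK cells (2.85) and 6 of 8 of skeletal muscle (1.45). The log2 of the summed neutrophil signal was 10.64 in the contralateral, 14.77 in the proximal and 14.36 in the distal nerve. Summed Schwann cell signal was 19.35, 18.68 and 18.45 in the same order. The part of these cells in the values of the ligands and receptors was not tested.

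In the proximal segment 2 of 8 genes, Nrg1 and Areg, were higher and none lower, beside 11.2% and 12.0% of all genes, 23.2% together. Nrg1 was at least 14.0-fold higher than in the contralateral nerve (log2 3.81 ± 0.72) and Areg at least 7.80-fold (2.96 ± 0.07). Egfr, at -0.84 ± 0.08, and Erbb2, at -0.71 ± 0.12, were on the same side as in the distal segment but within 2-fold. The other values were Erbb3 0.34 ± 0.15, Hbegf -0.15 ± 0.08, Tgfa -0.08 ± 0.08 and Btc 0.51 ± 0.74, the last -0.02 with normexp. The other Tgfa probe gave -1.99 ± 0.09, at least 2-fold lower as in the distal segment. Both segments were set against the same contralateral array, whose own deviations enter both. With normexp Areg was at 0.73. All 9 skeletal muscle markers were at least 2-fold higher in the proximal segment (median 4.94), where the log2 of their summed signal was 15.62 against 10.99 contralaterally and 12.33 distally. Also higher were 6 of 8 neutrophil (2.71), 5 of 8 monocyte and macrophage (1.45) and 5 of 6 T and NK cell markers (2.58). Lower were 6 of 8 fibroblast (-1.33), 4 of 4 adipocyte (-1.47) and 4 of 9 Schwann cell markers, of which 1 was higher (-0.94). The part of these cells in the values was not tested.

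Set directly against each other, the segments differed most, among the 8 genes, in the ligands Btc and Areg. Btc was 3.84-fold higher in the distal segment (log2 1.94 ± 0.23), where 1.24% of all genes were at least 2-fold higher. Areg was 2.51-fold lower there (-1.33 ± 0.09), beside 1.94% of all genes, so that 3.18% were apart either way. Ereg, the next gene on the chromosome, was well above background only in the proximal segment among all 8 arrays, at 4.43 there and at 2.67 in the distal segment, a log2 difference of at most -1.76 ± 0.60. The other 6 genes were within 2-fold: Erbb2 at -0.70 ± 0.10, Egfr -0.35 ± 0.06, Nrg1 -0.30 ± 0.14, Hbegf -0.26 ± 0.06, Tgfa 0.02 ± 0.07 and Erbb3 0.34 ± 0.16. With normexp Btc was at 0.70 and Areg at -0.44, both within 2-fold. All 9 muscle markers were at least 2-fold lower in the distal segment (median -3.69), and their part was not tested.

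**Figure D3:**
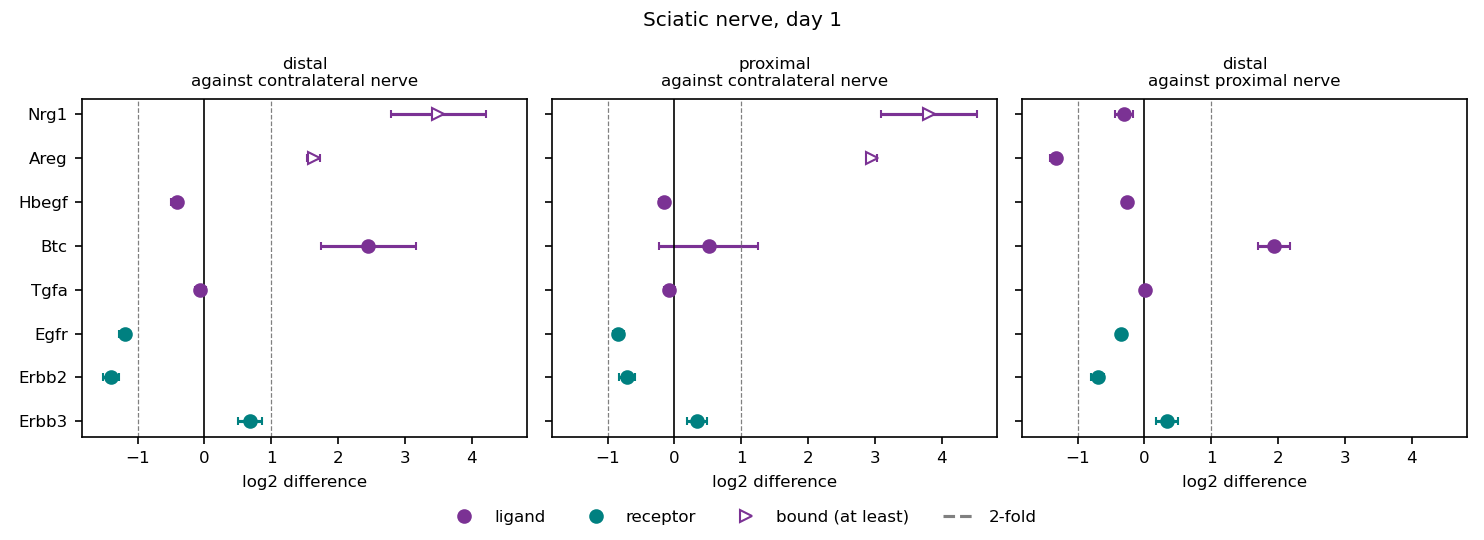
Log2 differences (horizontal axis) of the 8 genes between nerve samples, with bars for the spot error, open triangles for bounds and dashed lines at 2-fold. Nrg1 and Areg lie to the right in both cut segments, Egfr and Erbb2 to the left, and Btc and Areg part when the segments are compared.

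In the spinal cord the label dorsal hemisection was set against the C-level control. Here 2 of 8 genes were higher and none lower, beside 10.2% and 9.26% of all genes, 19.5% together. Erbb2 was 3.21-fold higher (log2 1.68 ± 0.22, and 1.61 ± 0.24 on its second probe) and Hbegf 2.09-fold (1.06 ± 0.16). Egfr was at 0.91 ± 0.08, Erbb3 at 0.21 ± 0.19 and Tgfa at 0.07 ± 0.07, with -0.78 ± 0.07 on the other probe. Nrg1 was at -0.81 ± 0.18, below the control by less than 2-fold. Areg and Btc were not well above background on either array, and no fold is given.

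The Hbegf call stands close to the threshold. It was at 0.94 on the scans scaled to their 75th percentile and at 0.80 with normexp. With the scans as filed Erbb2 was at -0.02 and Hbegf at -0.05. The scans filed under hemisection and C-level cord rank as the unstimulated and 24 h Schwann cell columns. In the hemisection cord 6 of 7 neuron markers were at least 2-fold lower (median -1.34), and 7 of 8 monocyte and macrophage markers (1.96), 5 of 8 neutrophil markers (1.47) and 4 of 8 fibroblast markers (1.04) were higher. All 4 adipocyte markers (-2.67) and 7 of 9 skeletal muscle markers (-1.77) were lower. Of the Schwann cell markers 3 of 8 were higher and none lower (0.06). The part of these cells in the values of Erbb2 and Hbegf was not tested, and segment level and treatment cannot be told apart.

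The cultures asked what S100A8/A9 does to Schwann cells directly. At 1 h 2 of 8 genes, the ligands Areg and Nrg1, were at least 2-fold higher than in unstimulated cells and none was lower, beside 1.7% and 1.35% of all genes, 3.04% together. Areg was 2.33-fold higher (log2 1.22 ± 0.15) and Nrg1 2.17-fold (1.12 ± 0.24). Hbegf was at 0.35 ± 0.05, more than its spot error but well within 2-fold, and Btc at -0.10 ± 0.30. The receptors Erbb2 and Erbb3 were slightly lower, at -0.37 ± 0.08 and -0.43 ± 0.07, and Egfr was at 0.95 ± 0.75. The second Erbb2 probe gave -0.19 ± 0.07. Tgfa was at -0.14 ± 0.07 on its representing probe and at -1.07 ± 0.08 on the other.

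Unstimulated cells were collected at 24 h alone, so time in culture and stimulation cannot be told apart at 1 h. With normexp Areg was at 0.62 and Nrg1 at 0.72, and with the scans as filed at -3.02 and -3.61. The scans filed under 1 h and unstimulated cells rank as the contralateral and proximal nerve columns. By the headings that setting compares nerve samples and not cultures. Schwann cell markers were lower at 1 h as well, 4 of 9 at least 2-fold (median -0.63), and the part of this in the values above was not tested.

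At 24 h no gene of the 8 was 2-fold from the unstimulated culture, beside 0.636% of all genes higher and 0.627% lower, 1.26% together. Areg was at 0.82 ± 0.15, Btc at 0.43 ± 0.25 and Egfr at 0.20 ± 0.78. Nrg1, at 0.03 ± 0.28, Hbegf, at 0.06 ± 0.05, and Erbb2, at 0.01 ± 0.08, stood near 0, and Tgfa was at -0.10 ± 0.07 and Erbb3 at -0.17 ± 0.07. The other Tgfa probe gave 0.54 ± 0.07.

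From 1 h to 24 h of stimulation Nrg1 was the 1 gene of 8 that was lower, by 2.13-fold (log2 -1.09 ± 0.19), and none was higher, beside 2.04% and 1.86% of all genes, 3.9% together. Areg was at -0.40 ± 0.10, so it was nearer to its level at 1 h than Nrg1 was. Egfr was at -0.75 ± 0.68, Hbegf at -0.29 ± 0.05, Tgfa at 0.04 ± 0.07, Erbb3 at 0.27 ± 0.07, Erbb2 at 0.39 ± 0.08 and Btc at 0.54 ± 0.23. The second Erbb2 probe gave -0.13 ± 0.07 and the other Tgfa probe 1.60 ± 0.08. With normexp Nrg1 was at -0.72, and with the scans as filed at 3.56. The scans filed under 24 h and 1 h rank as the C-level cord and contralateral nerve columns. The 3 comparisons share their 3 arrays.

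**Figure D4:**
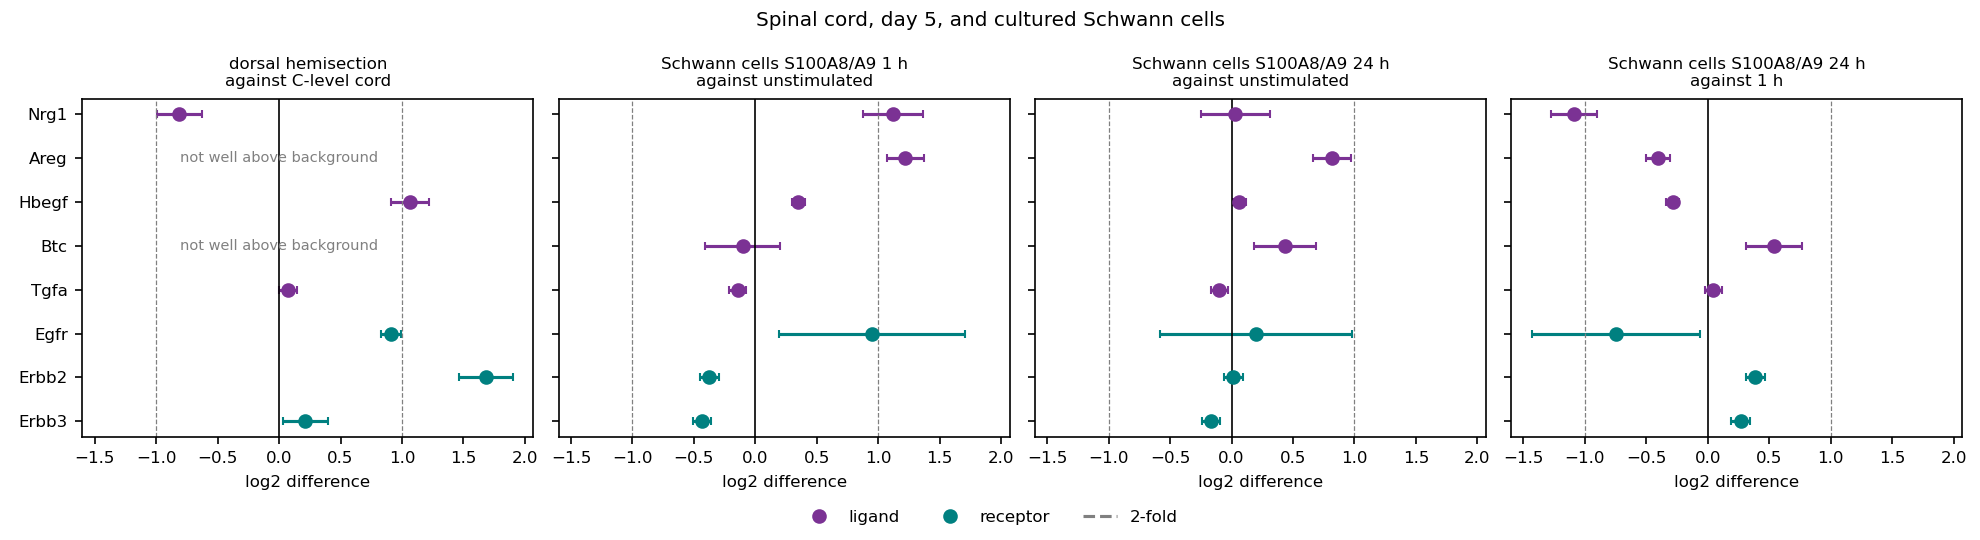
Log2 differences (horizontal axis) of the 8 genes in cord and cultured Schwann cells, with bars for the spot error and dashed lines at 2-fold. Erbb2 and Hbegf pass 2-fold in the hemisection cord, Nrg1 and Areg at 1 h of stimulation, Nrg1 downward from 1 h to 24 h, and no gene at 24 h against unstimulated cells.

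Beyond the 8 genes, 91 other gene symbols of the ErbB pathway were listed by role, and 77 of them had a deposited value. Among those without one is Nrd1, an older symbol of the listed Nrdc. Of 74 with a measured difference in the distal segment, 14 were 2-fold or more higher and 7 lower (median 0.26, all genes 0.01), and in the proximal segment 11 of 77 were higher and 3 lower (median 0.26). Over all genes 13.5% were higher and 14.4% lower distally, and 11.2% and 12.0% proximally. Target genes of the pathway had the highest medians of any role in the nerve among roles with more than 1 gene, 1.01 distally and 0.96 proximally, with 6 and 5 of 11 higher. Fosl1, a subunit of the AP-1 transcription factor, was at least 6.48 ± 0.71 distally and at least 6.02 ± 0.71 proximally. Plaur, the urokinase receptor, was at 2.75 ± 0.25 and 3.15 ± 0.25, and Phlda1 at 1.55 ± 0.21 and 2.20 ± 0.18. None of the 11 targets was at least 2-fold lower in either segment. Egr1 (-0.13 distally and -0.79 proximally), Egr2 (-0.69 and -0.47) and Jun (-0.28 and -0.54) were below the contralateral nerve, and the other targets above it. The target genes also answer to many other signals.

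Genes that process ligands or restrain the receptors had lower medians. Rhbdl2, a rhomboid protease, was at least 3.92 ± 0.50 distally and at least 4.06 ± 0.51 proximally. It was 1 of 8 measured in its group to be higher in either segment, while Timp3, an inhibitor of ADAM17, was at -1.45 ± 0.09 proximally. Of the feedback inhibitors 3 of 15 were higher and 1 lower distally, and 2 of 16 were higher proximally. The shares over all genes, for both groups, were 13.5% higher and 14.4% lower distally, and 11.2% and 12.0% proximally. The ERK phosphatase Dusp5 was at 1.46 ± 0.03 and 1.66 ± 0.04 and the tyrosine phosphatase Ptpn1 at 1.43 ± 0.08 and 1.29 ± 0.08. Among receptor partners the hyaluronan receptor Cd44 was at 1.73 ± 0.11 and 1.65 ± 0.11, the tetraspanin Cd9 at -2.02 ± 0.04 and -1.37 ± 0.04, and the syndecan Sdc3 at -1.84 ± 0.08 distally. Pik3r1, a regulatory subunit of phosphoinositide 3-kinase, was at -1.39 ± 0.08 distally and -1.24 ± 0.09 proximally. The ligand Ereg was at least 1.44 ± 0.44 proximally. Between the segments Ereg was the only listed gene of 77 at least 2-fold apart, beside 3.18% of all genes.

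In the hemisection cord 17 of 76 pathway genes were higher by 2-fold or more and 4 lower (median 0.32, all genes -0.04), beside 10.2% and 9.26% of all genes. Of the target genes 9 of 11 were higher and none lower (median 1.31): Fosl1 was at 3.80 ± 0.47, Plaur at 2.39 ± 0.48, Egr2 at 2.12 ± 0.11, Fos at 1.49 ± 0.16 and Jun at 1.41 ± 0.06. The adaptors Shc4 and Shc1 were at 2.05 ± 0.37 and 1.47 ± 0.16, and the ligand Nrg4 was at 1.34 ± 0.24. Lower were the adaptor Grb7, at -2.01 ± 0.25, whose gene lies close to the higher Erbb2 on chromosome 10, and the phosphatase Dusp4, at -1.35 ± 0.25. Erbb4, the other neuregulin receptor, was brightest in the cord samples (5.63 and 5.33), lower in contralateral and proximal nerve (4.08 and 3.37), and not well above background in the distal nerve or any culture.

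In Schwann cells at 1 h 3 of 72 measured pathway genes were higher and 1 lower, beside 1.7% and 1.35% of all genes. The 3 were cyclin D1, Ccnd1, which drives entry into the cell cycle, at 1.94 ± 0.06, Fosl1 at 1.62 ± 0.06 and Phlda1 at 1.47 ± 0.10. Cd9 was at -1.28 ± 0.05. The other target genes were within 2-fold, with Fos (-0.97), Jun (-0.39) and Ier3 (-0.09) below unstimulated cells and the rest above. At 24 h none of 72 was higher than in unstimulated cells and 1 was lower, Pik3cb at most -1.09 ± 0.61, beside 0.636% and 0.627% of all genes. From 1 h to 24 h Ccnd1 was at -2.02 ± 0.06, Fosl1 at -1.81 ± 0.07 and Phlda1 at -1.39 ± 0.08, the same direction as Nrg1, while Pik3r3, Cd9 and Fos were higher, at 1.41 ± 0.21, 1.32 ± 0.05 and 1.25 ± 0.07, and Shc4 was at most -1.14 ± 0.68. Counted over the list, 3 of 71 were higher and 4 lower in this last comparison, beside 1.86% and 2.04% of all genes.

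**Figure D5:**
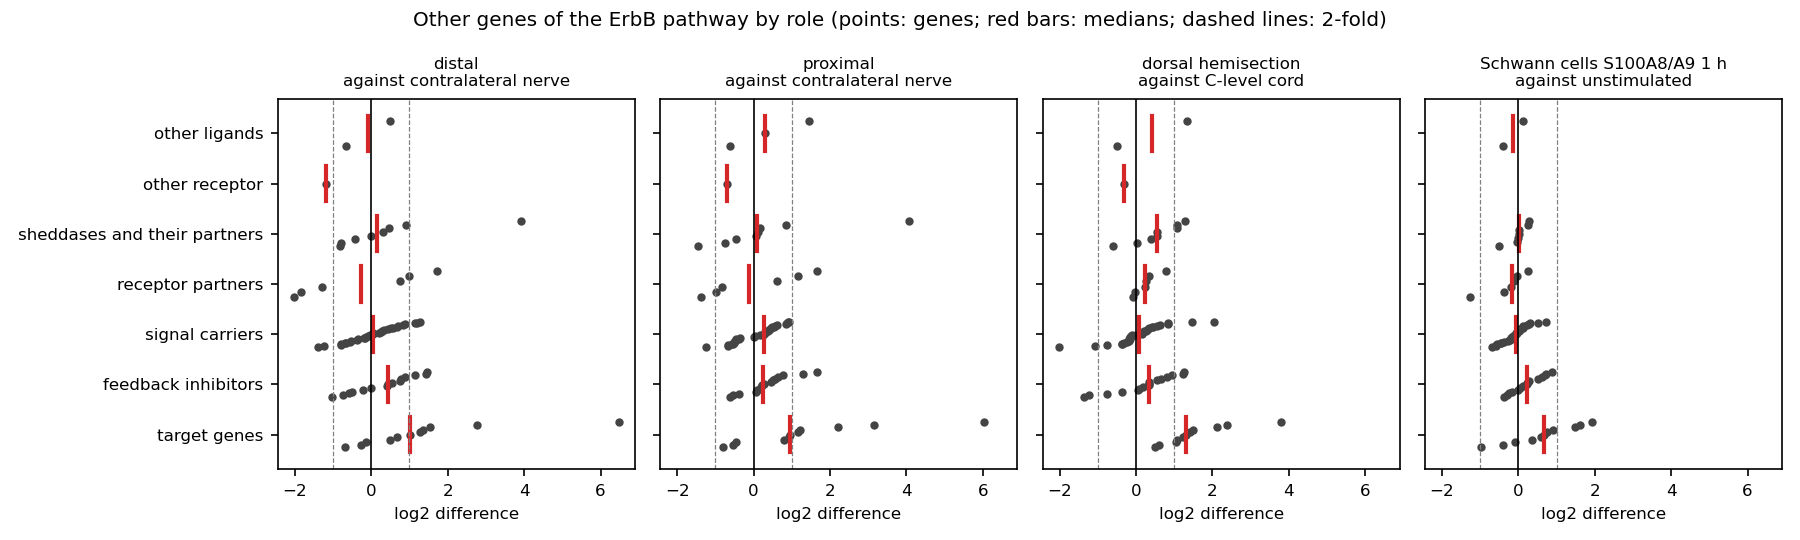
Log2 differences (horizontal axis) of the other ErbB pathway genes by role in 4 comparisons, with red bars for the median of each role. The target genes have medians of 1.01, 0.96, 1.31 and 0.66, and the medians of the signal carriers stay within 0.27 of 0, while single carriers reach 2.05 (Shc4) and -2.01 (Grb7) in cord.

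The genes whose values over the 8 arrays ran most like those of each member, by Pearson's r over these 8 arrays among 12764 genes, are given as a description. The arrays fall into 3 tissues, so a high r mostly restates an order of tissues. Nrg1 separated no tissues, and its r rests largely on 1 dim value, 3.51 in the contralateral nerve. For Tgfa the flat probe was used, with its range of 0.30. Nrg1 was most like Bola3 (0.98), Cops5 (0.97) and Pde4b (0.96), and Areg most like Srprb (0.98), Mybbp1a (0.98) and Yrdc (0.98). For Hbegf these were Oaf, Itgb1bp1 and C8h11orf52 (1.00, 0.99 and 0.99), for Btc RGD1311745, Crnkl1 and Mtf2 (0.99, 0.99 and 0.98), and for Tgfa Tbx21, Cacna1a and Igh-6l1 (0.97, 0.95 and 0.95). Egfr was most like Sox7 (1.00), the cadherin gene Cdh1 (0.99) and Myoc (0.99). Erbb2 was most like Plekhg2, Cald1 and Col5a1 (1.00, 1.00 and 0.99), and Erbb3 most like Kdm6b, Lypla1 and Neurl1b (1.00 for each).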

How the data were processed

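Total RNA of 8 samples was labelled with Cy3 and measured on 1 slide in 1 scan day. The authors' deposited table holds log2 values in 24938 rows, normalized between arrays in a manner not given in the sources used here (every column has the median 8.03). Of these rows, 24894 were non-control probes of the scans and were used. Linear intensity of each spot is in the deposited scanner output. Its headers name version 10.7.3.1 of Agilent Feature Extraction, and the submitters' processing notes name 10.5. Accessions were matched to RefSeq symbols (assembly GRCr8, names only): 15213 of these probes matched.

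Each log2 difference took 2 columns. Genes well above background on neither array were left out. A gene dim on 1 array was set against the higher of its value and that array's lowest value well above background, which gives a bound. The ± of a bound uses the spot error of the gene's own dim value, also where the array's lowest value replaced it. Spot error came from replicate spots in 20 intensity bins. No test was possible with 1 array a group. The steps were tested on simulated data. Normexp (limma 3.58.1, offset 50, then quantile normalization) used median spot signals, since the files hold no mean. Protein sequences were not used here. Pathway genes were named by size, up to 10 a comparison, at least 2-fold apart, and the 3 genes most like each member by r. The TATA box was added to the motifs after the windows were seen. Alternatives were the scans scaled to the 75th percentile, normexp, the scans as filed, the mean of a gene's probes, and other rules on dim genes. Members, lists and alternatives were chosen with earlier results of these data known.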

Additional observations from a re-analysis of the deposited data

How the results depend on the processing

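Of the 14 differences of the 8 genes called at least 2-fold, the number that stayed so in the same direction was 13 on the matching scans scaled to the 75th percentile, 5 with normexp, 14 with the mean of all probes, 14 with no filter and no floor, and 10 of the 10 with a value where both arrays had to be well above background. With the scans as they are filed it was 4, and 7 reversed. Counts of the 8 genes at least 2-fold apart were, with normexp, 3 in distal and 1 in proximal against contralateral nerve, 0 between the segments, 1 in cord, and 0 in Schwann cells at 1 h and from 1 h to 24 h. Requiring both arrays above background gave 3 distally and 0 proximally, since bounds drop out, and the 75th percentile gave 1 in cord. With the scans as filed, sample names pass to other arrays, so by the headings other pairs of samples are compared. The cord pair, for example, is then a pair of Schwann cell cultures. Under the filed names the counts were 6 proximally, 4 between the segments, 0 in cord, 6 at 24 h and 6 from 1 h to 24 h. Tissue orders without overlap were 9 under those names, in place of 17. The mean of its probes put Tgfa at -1.22 distally and -1.03 proximally.

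The differences that reversed did so with the scans as filed. These were, distally, Egfr 1.00, Erbb2 0.24, Rhbdl2 -0.52 and Cd9 0.34, and proximally Rhbdl2 -4.96 and Timp3 3.27. In cord they were Hbegf -0.054, Erbb2 -0.015, Egr2 -0.26, Fos -0.31, Shc1 -0.18, Jun -0.041 and Nrg4 -0.13. In Schwann cells at 1 h they were Nrg1 -3.61, Areg -3.02, Ccnd1 -0.78, Fosl1 -5.74, Phlda1 -2.10 and Cd9 1.29, at 24 h Pik3cb 0.76, and from 1 h to 24 h Nrg1 3.56, Fosl1 0.41, Phlda1 0.28, Cd9 -2.27 and Fos -1.20. That setting gives the arrays other sample names, so by the headings it compares other pairs of samples, some of them of other tissues. Only the distal nerve scan is filed under its own column.

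Over all genes, normexp lowered the counts higher and lower from 1629 and 1735 to 953 and 1012 distally, from 1362 and 1450 to 765 and 828 proximally, from 151 and 237 to 31 and 81 between the segments, from 1244 and 1127 to 710 and 550 in cord, from 185 and 147 to 49 and 59 at 1 h, from 70 and 69 to 10 and 19 at 24 h, and from 203 and 222 to 77 and 58 from 1 h to 24 h. The 75th percentile gave 96 and 302 between the segments. In Schwann cells at 1 h, 24 h and from 1 h to 24 h, no filter gave 315 and 320, 179 and 197, and 392 and 411, and requiring both arrays above background gave 19 and 22 at 24 h. With the scans as filed the counts were 1695 and 2491 distally, 2092 and 3540 proximally, 2675 and 1828 between the segments, 88 and 76 in cord, and 1350 and 1347, 2602 and 2626, and 2346 and 2046 in the cultures. These counts too stand under the filed names, and by the headings they belong to other pairs of samples. With 1 array a group the spread between animals or cultures is unknown. Areg and Nrg1 have only bounds against the contralateral nerve, and Areg and Btc have no fold in cord. No paired analysis was possible because each group has 1 array.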
